A study of Mus musculus with 16 samples.

Results

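Transcripts of 10 heat shock genes were followed in engrafted brain macrophages and host microglia of bone marrow chimeric mice, with and without a peripheral endotoxin challenge. The genes were Hspa1a, Hspa1b, Hspa8, Hsp90aa1, Hsp90ab1, Dnaja1, Dnajb1, Hsph1, Hspb1 and Hspe1, and they were found by symbol among the 24411 genes of the exon count table. All 10 had reads and passed the filter on low counts in every comparison. They were selected on measured values, since Hspa1a and Hspa1b had been picked for their fall with LPS in these libraries and the other genes were added as their chaperone family. The values of the LPS comparisons are therefore given as a description, with no test, for all 10 genes.

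The mice were wild-type C57BL/6J animals that had received 950 cGy of total body irradiation and congenic wild-type bone marrow carrying CD45.1. All mice thus share irradiation and transplantation, and no library came from an unirradiated brain. The host microglia were themselves irradiated, while the engrafted cells came from marrow transferred afterwards. Exposure to irradiation therefore cannot be told apart from cell origin in comparisons of engrafted with host cells. The paper names radiation damage as a possible source of such differences, and reports that engrafted cells also differed from unirradiated microglia of matched age. From each brain, Ly6C/G-negative CD11b+ CD45-low cells were sorted into CD45.1 engrafted cells and CD45.2 host microglia. Mice 1 to 4 were challenged with LPS (lipopolysaccharide, 2.5 mg/kg) for 12 h and mice 5 to 8 were unchallenged controls, which gave 4 groups of 4 libraries (engrafted control, host control, engrafted LPS and host LPS). Recipients were irradiated at 6 weeks of age and analysed 9 months after transfer, and the labels also name 3.5 months without assigning a time to a library. Brains had been digested for 20 min at 37 °C before sorting.

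Heat shock proteins are molecular chaperones that bind unfolded or unstable proteins. Hsp70 proteins bind exposed hydrophobic stretches in an ATP-driven cycle that is started by J-domain partners and reset by nucleotide exchange factors, while Hsp90 completes the maturation of kinases and steroid receptors. Heat shock factor 1 (HSF1) induces many of these genes during heat or protein stress, through repeats of the unit nGAAn in their promoters. Hspe1, though listed with the cytosolic proteins, encodes the mitochondrial cochaperonin Hsp10, whose partner is Hspd1 (Hsp60).

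The inducible Hsp70 genes Hspa1a (NM_010479, chromosome 17, 35106304 to 35109101, minus strand, mm9) and Hspa1b (NM_010478, chromosome 17, 35093374 to 35096183, minus strand, mm9) are close copies of each other. In GENCODE the coding transcript of Hspa1a has 1 exon, and those of Hspa1b have 1 or 2. The 250 bases before their start sites, from the RefSeq promoter table on GRCm38.p6, are shown because both genes carry the same heat shock unit there and moved together. Capitals mark GAANNTTC, a pair of inverted heat shock units. The windows are chr17:34972157-34972406 for Hspa1a and chr17:34959239-34959488 for Hspa1b, both on the minus strand.
Hspa1a: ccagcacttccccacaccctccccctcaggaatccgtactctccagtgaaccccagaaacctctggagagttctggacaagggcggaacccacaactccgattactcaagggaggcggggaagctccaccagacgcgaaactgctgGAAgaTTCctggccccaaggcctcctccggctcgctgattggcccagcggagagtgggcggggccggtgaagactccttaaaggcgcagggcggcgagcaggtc
Hspa1b: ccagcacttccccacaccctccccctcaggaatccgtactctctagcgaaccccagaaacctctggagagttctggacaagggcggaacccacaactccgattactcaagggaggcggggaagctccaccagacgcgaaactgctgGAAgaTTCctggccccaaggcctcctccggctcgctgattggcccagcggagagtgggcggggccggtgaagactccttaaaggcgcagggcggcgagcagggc
These stretches differed at 3 of 250 bases (98.8% identical), and the capital letters lay at the same distance from the start, 104 to 97 bases before it. Over the 250 bases before the start, the letters GAANNTTC occurred in 6.69% of 32851 mouse promoters, TTCNNGAA in 7.17%, and either in 12.8%. Both patterns read the same on the other strand.

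Promoters of 7 of the 10 genes matched the table, and those of Hspa8, Hsp90aa1 and Hsp90ab1 were not matched. A further 4 windows are shown to compare the arrangement of units, each with 30 bases on either side where the table reached. Their positions on GRCm38.p6 are chr1:55088029-55088106 for Hspe1, chr5:135887772-135887859 for Hspb1 and chr4:40722314-40722381 for Dnaja1, all on the plus strand, and chr5:149636337-149636399 on the minus strand for Hsph1. Capitals mark GAANNTTC or TTCNNGAA.
Hspe1: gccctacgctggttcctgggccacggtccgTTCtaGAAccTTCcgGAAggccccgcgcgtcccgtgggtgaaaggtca
Hspb1: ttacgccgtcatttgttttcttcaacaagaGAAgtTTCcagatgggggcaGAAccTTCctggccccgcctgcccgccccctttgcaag
Dnaja1: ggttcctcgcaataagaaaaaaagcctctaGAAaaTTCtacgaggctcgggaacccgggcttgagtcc
Hsph1: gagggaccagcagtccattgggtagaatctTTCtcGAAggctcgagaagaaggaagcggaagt
In Hspe1, overlapping matches of both patterns formed 2 runs of 3 alternating units, an arrangement held by 0.466% of all promoters. Hspb1 had 2 separate GAANNTTC matches and Hsph1 had 1 TTCNNGAA. Dnaja1 had 1 GAANNTTC in the first of its 3 listed promoters, which is the one shown, and no match in promoters 2 and 3. In the Dnajb1 windows these letters were not found. A match is a description of the sequence and not a measured binding site.

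Levels are given as counts per 1000000 reads (CPM), that is reads of a gene per 1000000 reads on genes after TMM scaling, a correction for library composition. The libraries held 395283 to 1203597 reads on genes. CPM values were compared between libraries for 1 gene and not between genes. Reads came from the 3′ ends of transcripts and were kept only where they mapped uniquely, which bears on some of these genes. Of the 270 words of 31 bases in the last 300 bases of each transcript, 258 in Hsp90aa1, 217 in Hspa8, 201 in Hspb1, 195 in Hspe1 and 109 in Hsp90ab1 occurred at another place on the 22 main chromosomes of NCBIM37. Levels of these 5 genes may therefore be undercounted, in all groups by the same rule. No such word was found elsewhere for Hspa1a, Hspa1b, Dnaja1, Dnajb1 or Hsph1, so the last 300 bases separate Hspa1a from Hspa1b.

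**Figure D1:**
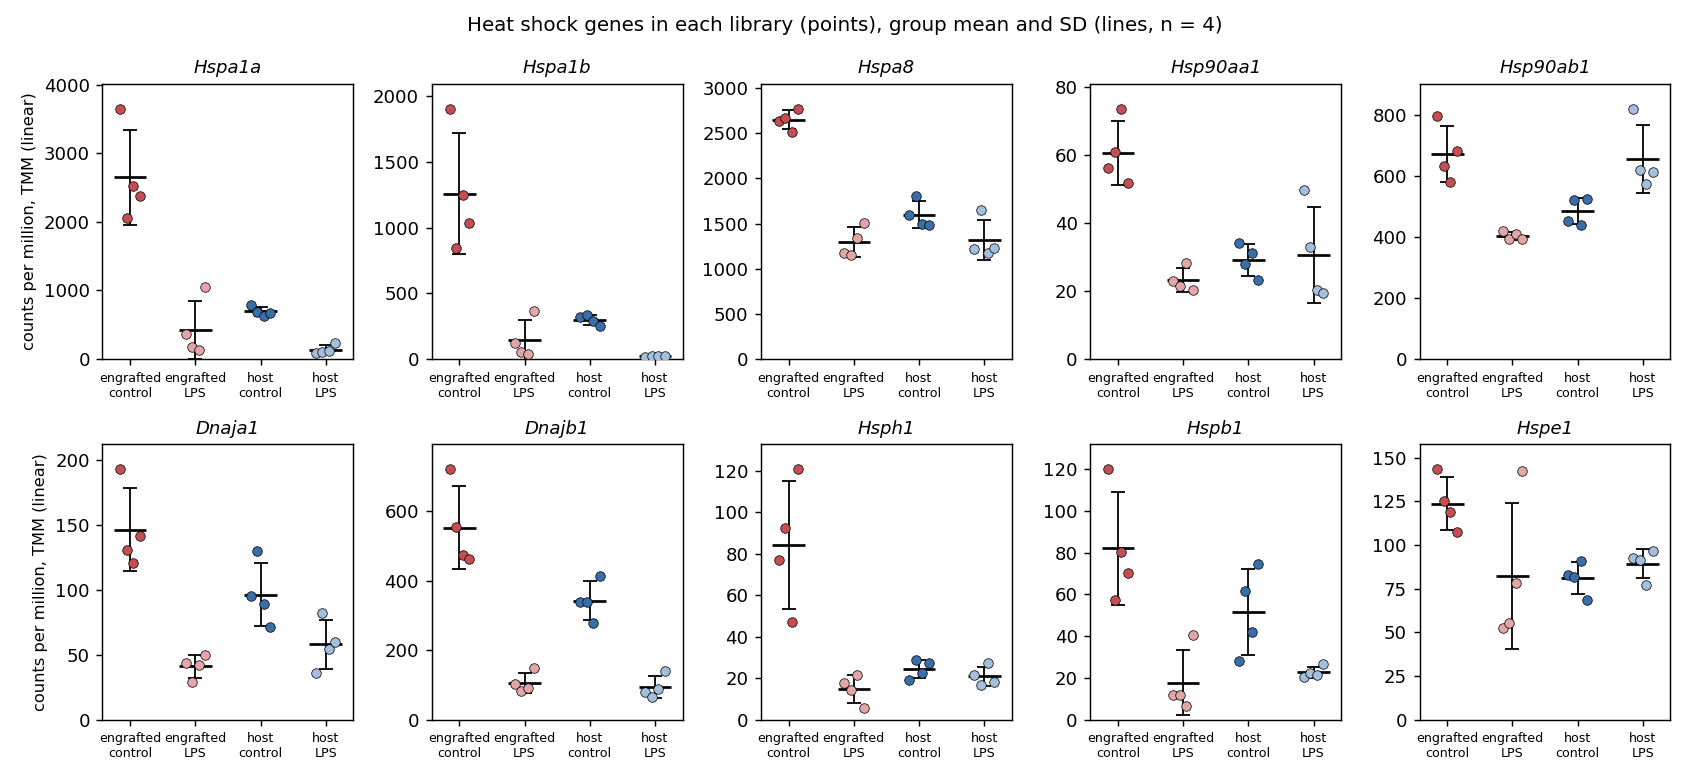
Each panel shows 1 gene, with TMM-scaled CPM on a linear axis from 0 and the 4 groups side by side. Points are libraries, lines are the mean and SD (n = 4). The engrafted control libraries have the highest mean in all 10 panels.

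In unchallenged mice, engrafted cells had higher levels of all 10 heat shock genes than the host cells (edgeR quasi-likelihood test, Benjamini-Hochberg adjusted p below 0.05). Hspa1a and Hspa1b differed most, by about 4-fold, followed by Hsph1 and Hsp90aa1. By the same rule 13.6% of the 8042 genes tested were higher in engrafted cells. Of the 10, 4 (Hspa1a, Hspa1b, Hsph1 and Hsp90aa1) were also over 2-fold higher, against 5.66% of all genes. For 8 of the 10, every engrafted library lay above every host library, against 12.7% of all genes, and the exceptions were Dnaja1 and Hspb1. The median log2 difference was 0.72 over the 10 genes and 0.02 over all genes tested. These control libraries also entered the LPS comparison on which Hspa1a and Hspa1b were chosen, so the tests of these genes are not independent of that choice.

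Hspa1a encodes inducible Hsp70. It stood at 3652, 2051, 2527 and 2381 CPM in the engrafted cells of mice 5 to 8 and at 791.6, 689.7, 634.0 and 667.3 CPM in their host microglia. The groups did not overlap, and the log2 difference was 1.94 (SE 0.14, edgeR adjusted p = 4.19e-11). Hspa1b, which encodes an almost identical protein, stood at 1906, 848.3, 1245 and 1033 CPM in the engrafted cells and at 321.7, 334.8, 291.3 and 251.0 CPM in the host microglia. Its log2 difference was 2.07 (SE 0.18, edgeR adjusted p = 8.47e-10). Together, both genes took 0.281% to 0.573% of the reads of an engrafted control library and 0.0937% to 0.116% of a host control library. The engrafted cells of mouse 5 were highest for both.

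Hsph1 (NM_013559, chromosome 5, 150419420 to 150438890, mm9), an Hsp110 protein that acts as nucleotide exchange factor of Hsp70, was at 76.8, 92.1, 46.9 and 121 CPM in engrafted cells and at 19.3, 28.9, 22.6 and 27.2 CPM in host microglia. All engrafted libraries were above all host libraries, with a log2 difference of 1.66 (SE 0.23, edgeR adjusted p = 2.32e-06). Hspa8 (NM_031165, chromosome 9, 40609356 to 40613282, mm9), the constitutive Hsc70, was at 2640, 2674, 2515 and 2772 CPM in engrafted cells and at 1595, 1807, 1496 and 1488 CPM in host microglia. The spread within each group was small beside the gap, and the log2 difference was 0.74 (SE 0.10, edgeR adjusted p = 2.82e-06).

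Among the J-domain partners, Dnajb1 (Hsp40; NM_018808, chromosome 8, 86132074 to 86136552, mm9) was at 464 to 719.7 CPM in engrafted cells and at 278 to 414 CPM in host microglia. The log2 difference was 0.70 (SE 0.15, edgeR adjusted p = 6.69e-04). Dnaja1 (NM_001164671, chromosome 4, 40669955 to 40681998, mm9) was at 121 to 192 CPM and at 71.6 to 130 CPM, so the groups overlapped. Its log2 difference was 0.62 (SE 0.17, edgeR adjusted p = 0.00674) and was 0.44 with adjusted p = 0.0537 without the engrafted cells of mouse 5.

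Both cytosolic Hsp90 genes were higher in engrafted cells. Hsp90ab1 (NM_008302, chromosome 17, 45704727 to 45710210, mm9), the constitutive form, was at 797.5, 632.8, 579.8 and 680.5 CPM against 453.6, 521.4, 440.9 and 525.1 CPM, a log2 difference of 0.48 (SE 0.12, edgeR adjusted p = 0.00448). Hsp90aa1 (NM_010480, chromosome 12, 111929246 to 111934605, mm9), the inducible form, was at 51.9 to 73.7 CPM against 23.2 to 34.1 CPM, from 23 to 55 reads a library. Its log2 difference was 1.02 (SE 0.19, edgeR adjusted p = 2.03e-04).

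Hspe1 (NM_008303, chromosome 1, 55144992 to 55148161, mm9) was at 108 to 143 CPM in engrafted cells and at 68.5 to 91.1 CPM in host microglia, a log2 difference of 0.61 (SE 0.14, edgeR adjusted p = 0.00156). Its partner Hspd1 did not pass the test (log2 difference 0.39, SE 0.21, edgeR adjusted p = 0.186). Hspb1 (Hsp27; NM_013560, chromosome 5, 136363789 to 136365433, mm9), a small heat shock protein that holds unfolded clients, was at 119.8, 57.4, 80.4 and 70.5 CPM against 28.2, 61.6, 42.1 and 74.6 CPM. These ranges overlapped, and the engrafted cells were higher in 2 of 4 mice. The log2 difference of 0.67 (SE 0.23, edgeR adjusted p = 0.0293) was no longer past the threshold under library totals (0.60, adjusted p = 0.0548) or in the fit of all 16 libraries (0.66, adjusted p = 0.0937). It was also lost without mouse 5 in the engrafted group (0.40, adjusted p = 0.216), without mouse 5 in the host group (0.51, adjusted p = 0.101) and without mouse 7 in the host group (0.57, adjusted p = 0.103).

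**Figure D2:**
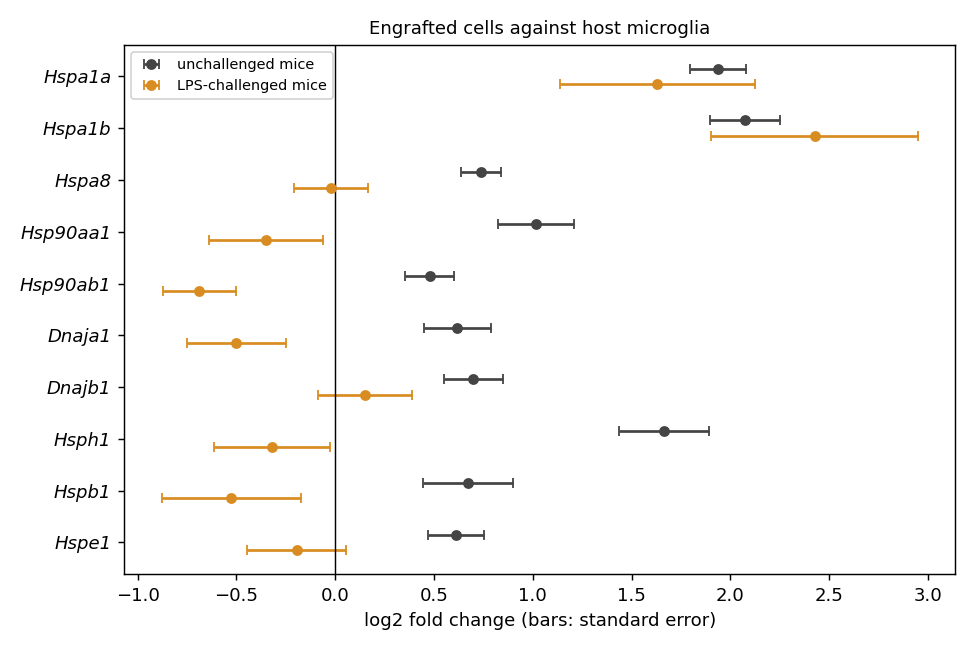
Horizontal axis, log2 fold change of engrafted cells against host microglia with its standard error, for the 10 heat shock genes in unchallenged mice and in LPS-challenged mice (4 libraries a group). All 10 unchallenged points lie right of 0, while after LPS 3 points lie right of 0 and 7 lie left of it.

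In LPS-challenged mice, Hspa1a and Hspa1b were higher in engrafted cells, which is 2 of the 10 genes against 9.52% of the 7843 genes tested, both over 2-fold, against 6.43%. Hsp90ab1 was lower in engrafted cells, against 7.62% of all genes. The other 7 did not pass the test, with log2 differences from -0.53 (Hspb1) to 0.15 (Dnajb1). The median log2 difference over the 10 genes was -0.26, and -0.01 over all genes. These libraries are those of the LPS comparisons on which Hspa1a and Hspa1b were chosen.

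Hspa1a stood at 367.6, 173.0, 129.4 and 1045 CPM in the engrafted cells of mice 1 to 4 and at 83.5, 106.0, 120.0 and 230.4 CPM in their host microglia. The ranges overlapped, but the engrafted cells were higher in 4 of 4 mice. The log2 difference was 1.63 (SE 0.49, edgeR adjusted p = 0.0288). It rested on the engrafted cells of mouse 4, without which it was 0.77 (SE 0.32, adjusted p = 0.113). The threshold was also missed without the host microglia of mouse 1 (1.46, adjusted p = 0.0939), of mouse 2 (1.53, adjusted p = 0.0758) or of mouse 3 (1.58, adjusted p = 0.0738). It was further missed by DESeq2 (1.69, adjusted p = 0.10) and limma-trend (1.28, adjusted p = 0.0998).

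Hspa1b stood at 120.7, 50.5, 38.4 and 363.8 CPM in the engrafted cells and at 15.8, 26.3, 24.9 and 22.3 CPM in the host microglia, where it had 14 to 27 reads a library. Every engrafted library was above every host library, which held for 1 of the 10 genes and 10.5% of all genes. The log2 difference was 2.43 (SE 0.52, edgeR adjusted p = 0.00284), and 1.58 without the engrafted cells of mouse 4.

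Hsp90ab1 stood at 420.3, 392.8, 408.6 and 392.9 CPM in the engrafted cells and at 820.7, 619.6, 575.0 and 611.6 CPM in the host microglia. Every engrafted library was below every host library, with a log2 difference of -0.69 (SE 0.19, edgeR adjusted p = 0.0142). Without the host microglia of mouse 1 it was -0.57 (adjusted p = 0.0748). The constitutive Hspa8 stood at 1152 to 1508 CPM in engrafted cells and at 1169 to 1655 CPM in host microglia, with a log2 difference of -0.02 (SE 0.19, edgeR adjusted p = 0.965).

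The LPS comparisons within each population are given as fitted log2 changes of LPS against control. In engrafted cells these ran from -3.21 (Hspa1b) to -0.68 (Hspe1), with a median of -1.99 against -0.01 over all genes tested. All but Hsp90ab1 and Hspe1, that is 8 of the 10, were over 2-fold lower in the fit, as were 9.79% of the 7609 genes tested. In 9 of the 10 every LPS library lay below every control library (17.7% of all genes), Hspe1 being the exception. In host microglia the log2 changes ran from -3.62 (Hspa1b) to 0.43 (Hsp90ab1), with a median of -0.49 against 0.01. Of the 10, 4 (Hspa1a, Hspa1b, Dnajb1 and Hspb1) were over 2-fold lower, as were 9.30% of the 8238 genes tested, and 4 had every LPS library below every control library (18.7% of all genes). As these comparisons chose the genes, nothing is read from these counts.

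For the inducible Hsp70 genes the change with LPS was large in both populations. From the CPM values given above, Hspa1a had a log2 change of -2.65 (SE 0.44) in engrafted cells and -2.37 (SE 0.22) in host microglia. Hspa1b had -3.21 (SE 0.48) and -3.62 (SE 0.18). The engrafted cells of mouse 4 had the highest level of both genes after LPS, and without them the engrafted changes were -3.53 for Hspa1a and -4.09 for Hspa1b.

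The J-domain protein Dnajb1 was at 102, 82.9, 90.9 and 148 CPM in engrafted cells after LPS and at 81.3, 66.1, 87.9 and 141 CPM in host microglia. Both sets lay below their controls, with log2 changes of -2.38 (SE 0.22) and -1.86 (SE 0.19). Dnaja1 was at 28.8 to 49.5 CPM in engrafted cells after LPS and at 36.1 to 81.7 CPM in host microglia, with log2 changes of -1.80 (SE 0.21) and -0.71 (SE 0.22).

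Hsph1 and Hsp90aa1 were low in engrafted cells after LPS and close to their control level in host microglia. Hsph1 was at 17.6, 14.4, 21.8 and 5.82 CPM in engrafted cells (2 to 17 reads a library) and at 21.4, 16.5, 27.3 and 18.2 CPM in host microglia, with log2 changes of -2.18 (SE 0.29) and -0.23 (SE 0.23). Hsp90aa1 was at 20.4 to 28.2 CPM and at 19.6 to 49.7 CPM, with log2 changes of -1.26 (SE 0.22) and 0.10 (SE 0.25). Hspb1 was at 12.1, 12.0, 6.40 and 40.7 CPM in engrafted cells and at 20.3, 22.4, 21.4 and 26.5 CPM in host microglia, with log2 changes of -2.31 (SE 0.34) and -1.15 (SE 0.25).

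Hsp90ab1 took opposite directions. All 4 engrafted LPS libraries lay below all 4 engrafted controls, a log2 change of -0.73 (SE 0.17), and all 4 host LPS libraries lay above all 4 host controls, a log2 change of 0.43 (SE 0.15). Hspa8 had log2 changes of -1.03 (SE 0.17) and -0.28 (SE 0.15). Hspe1 was at 52.7, 55.3, 78.1 and 143 CPM in engrafted cells and at 92.6, 91.4, 77.2 and 96.4 CPM in host microglia, with log2 changes of -0.68 (SE 0.24) and 0.13 (SE 0.16). The differences between the populations in the LPS change (engrafted minus host) were below 0 for 9 of the 10 genes, as were 53.0% of the 8847 genes tested. They ran from -1.99 for Hsph1 to 0.37 for Hspa1b.

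**Figure D3:**
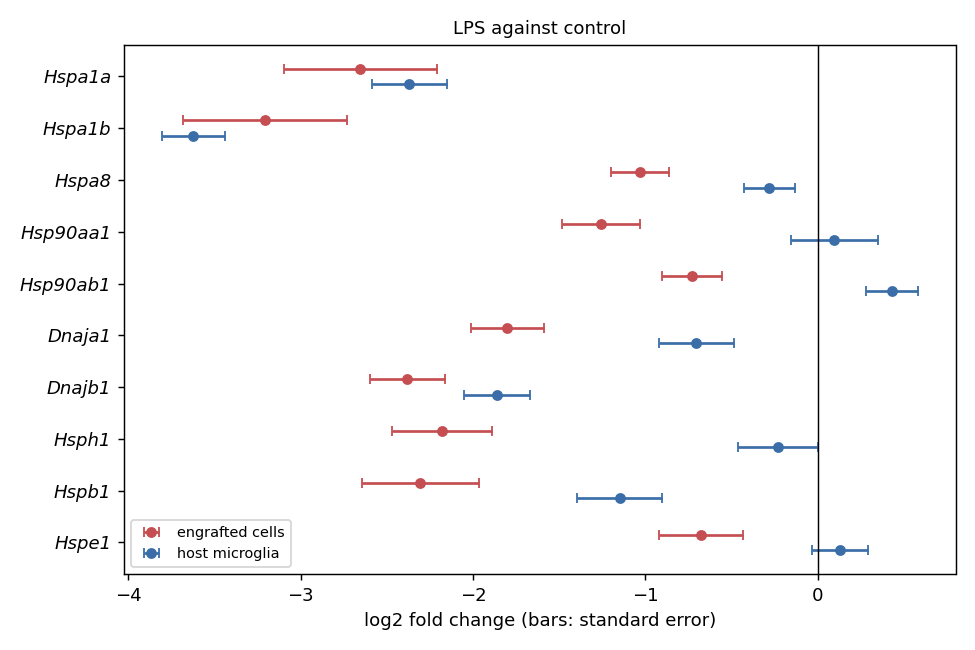
Horizontal axis, log2 fold change of LPS against control with its standard error, for the 10 heat shock genes in engrafted cells and in host microglia (4 libraries a group). All engrafted points lie left of 0, and the host points of Hsp90aa1, Hsp90ab1 and Hspe1 lie right of it.

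The share of Hspa1b among the reads of both inducible Hsp70 genes was looked at after the data were seen. It was 29.3% to 34.3% in engrafted controls, 27.3% to 32.7% in host controls, 22.6% to 25.8% in engrafted LPS libraries and 8.84% to 19.9% in host LPS libraries. After LPS it was 24.0% ± 1.5 (SD, n = 4) in engrafted cells and 15.5% ± 4.7 (SD, n = 4) in host microglia, without overlap. The two-sided exact permutation test gave p = 0.0286, the smallest that 4 against 4 allows, and 0.0571 after adjustment over the 2 comparisons. That test treats the libraries as independent, although both populations came from the same mice. Within mice the share was higher in the engrafted cells of 4 of 4, and the two-sided exact sign-flip permutation test over the 4 pairs, added after seeing the data, gave p = 0.125, the smallest it allows, and 0.25 after adjustment. This share was picked after the LPS values of both genes were known, and the genes were chosen for their fall with LPS. Neither adjusted value passed the threshold, which the paired test could not reach with 4 pairs. As the share was picked on these same values, no conclusion is drawn from either test. In unchallenged mice the means were 31.7% ± 2.3 (SD, n = 4) and 30.1% ± 2.4 (SD, n = 4), with exact permutation p = 0.371, and 0.50 within mice. The lowest share rested on 16 of 181 reads (95% exact binomial interval 5.14% to 14.0%, for counting error only).

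**Figure D4:**
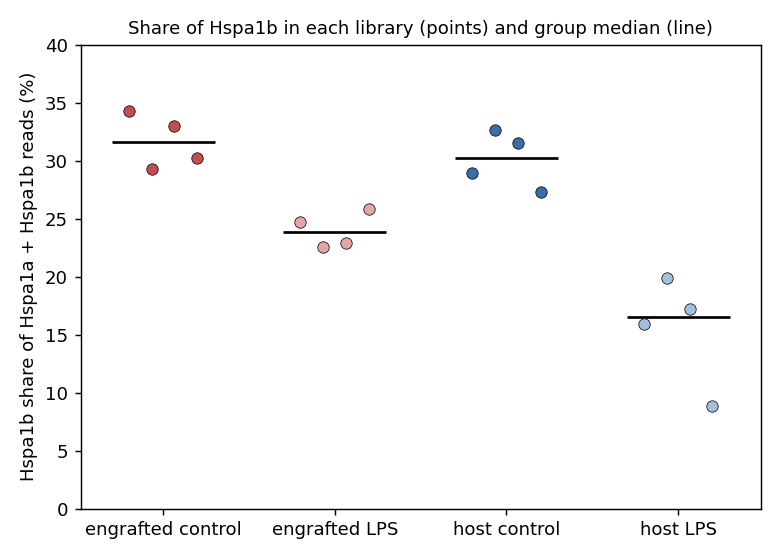
Vertical axis, Hspa1b reads as a percentage of Hspa1a plus Hspa1b reads, from 0. Points are libraries and lines are group medians. The engrafted LPS libraries lie between 22.6% and 25.8%, above all host LPS libraries.

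Across all 16 libraries with the group means removed, the 10 genes did not vary as 1 block. Hspa1a and Hspa1b went together (Pearson r 0.92 on log2 CPM). Against their summed level, r was 0.79 for Hspb1, 0.73 for Dnajb1, 0.62 for Hspe1, 0.50 for Dnaja1 and 0.27 for Hspa8. It was -0.07 for Hsp90ab1, -0.31 for Hsp90aa1 and -0.51 for Hsph1. Over the 6785 genes whose mean reached 20 CPM, the 5th and 95th percentiles of this r were -0.60 and 0.63. Hspb1 and Dnajb1 lay above that range, and the other heat shock genes set against the sum lay within it. Over all 45 pairs of the 10 genes the median was 0.21, and 28 pairs were above 0, with no share over pairs of all genes to set beside it. The 10 genes most like the summed level, of 6785 whose mean reached 20 CPM, were Phyh (r 0.90), Esrra, Hpcal1, Rab11a, Trim8, Rbm42, Osm, Map1s, Tmem109 and Smox (r 0.82). The 16 points share depth and preparation within a library and no test was made. In its group, the engrafted LPS library of mouse 4 was highest for Hspa1a, Hspa1b, Hspa8, Dnaja1, Dnajb1, Hspb1 and Hspe1. It was lowest there for Hsph1 and Hsp90aa1. For Hspa1a it stood at 1045 CPM, with the others at 129.4 to 367.6 CPM. These r values were not computed without it, so how far they rest on 1 library is not known.

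Genes of the wider chaperone network were tested in all comparisons and are counted here past an adjusted p of 0.05. By this rule 13.6% of all genes tested were higher and 13.7% lower in unchallenged engrafted cells, the shares to set beside these counts. In unchallenged mice 1 of 12 other HSF1-induced genes was higher in engrafted cells, Cacybp (log2 difference 0.77, SE 0.18, edgeR adjusted p = 0.00151), and Ier5 was lower. Hsf1 itself did not differ past the threshold (-0.25, SE 0.18, edgeR adjusted p = 0.337). Among 13 other cytosolic J proteins, Dnajb14 (2.11, SE 0.22, edgeR adjusted p = 2.80e-08) and Dnajb6 (1.15, SE 0.27, edgeR adjusted p = 0.00175) were higher and Dnajc7 (-0.41) was lower. Among 16 Hsp90 cochaperones Ahsa2 (0.75) was higher and Fkbp5 (-0.63) lower. Of 10 ER chaperones 5 were lower in engrafted cells (13.7% of all genes were), led by Sdf2l1 (-0.84), Calr (-0.68) and Dnajb11 (-0.67). Of 14 subunits of the chaperonin TRiC and prefoldin, which fold actin and tubulin, 1 was higher (Pfdn5, 0.57). The median log2 difference was 0.05 over 9 Hsp70 cochaperones and -0.03 over 10 mitochondrial chaperones and proteases. Hspb3, 1 further small heat shock gene, passed the filter on low counts only through the host control libraries. It had 0 reads in the engrafted control libraries and a mean of 33.8 CPM in host controls, and no test is read from it.

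After LPS, 9.52% of all genes tested were higher and 7.62% lower in engrafted than host cells by the same rule. Of 12 HSF1-induced genes 1 was higher, Dedd2 (1.17, SE 0.37, edgeR adjusted p = 0.0347), which is near that share. Among Hsp90 cochaperones Cdc37l1 was lower (-1.39, edgeR adjusted p = 0.00262). Hsbp1, a small HSF1-binding protein, was lower (-0.73, edgeR adjusted p = 0.0120), and so was the ER J protein Dnajb9 (-0.74). Hspd1 missed the threshold (-0.67, edgeR adjusted p = 0.0637).

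With LPS, part of the TRiC and prefoldin genes rose. By the same rule 19.4% of all genes tested rose and 19.3% fell in engrafted cells, and 19.2% rose and 20.5% fell in host microglia, which are the shares to set beside the counts of each list. In engrafted cells 6 of 14 TRiC and prefoldin genes rose, led by Cct6a (0.90), Cct2 (0.83) and Tcp1 (0.75), and Pfdn5 fell (-0.73). In host microglia 7 of 14 rose, led by Tcp1 (1.31), Cct2 (1.18) and Cct6a (1.08). Of 10 mitochondrial chaperones and proteases 3 rose in engrafted cells (Lonp1, Grpel1 and Hspa9) and 4 in host microglia (the same genes and Hspd1, 0.83, edgeR adjusted p = 0.00649). The test of the difference between the populations for Hspd1 gave -1.06 (SE 0.33, edgeR adjusted p = 0.0517).

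Of the Hsp90 cochaperones, Fkbp5, a known glucocorticoid-induced gene, rose from 31.3 to 493.9 CPM in engrafted cells (log2 change 3.89, edgeR adjusted p = 2.85e-11) and from 48.6 to 550.4 CPM in host microglia (3.43, edgeR adjusted p = 1.14e-12). In engrafted cells Ppp5c (0.48) also rose and 4 of the 16 fell, led by Ahsa2 (-1.09), Fkbp4 (-0.92) and Cdc37l1 (-0.91). In host microglia Cdc37l1 (0.91) and Ppp5c (0.55) rose. Of the Hsp70 cochaperones Bag1 (0.94) and Bag5 (0.68) rose in engrafted cells and Hspbp1 (0.53) in host microglia. The J proteins Dnajb6 (-1.94) and Dnajb14 (-1.90) fell in engrafted cells, and their LPS change differed between the populations (edgeR adjusted p = 0.0424 and 0.00160). In host microglia Dnajc7 (-1.07) and Dnajb2 fell and Dnajc21 (0.64) rose. Of the HSF1-induced genes Fkbp4 and Ahsa1, which are also in the Hsp90 list, fell in engrafted cells, and Ier5 (-1.03) fell and Hspd1 rose in host microglia. The Hsp110 protein Hspa4 (0.50) rose in host microglia. Of the ER chaperones, Dnajb11 (1.08) and Pdia6 (0.49) rose and Dnajb9 (-0.70) fell in engrafted cells, while Calr (-0.60), Hspa5 (-0.53) and Pdia3 (-0.40) fell in host microglia. Hsbp1 rose in host microglia (0.46). Hspb3 had a mean of 33.8 CPM in host controls and 7.56 CPM in host LPS libraries, a log2 change of -1.96. It passed the filter only through the host controls, so this change is given as a description.

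**Figure D5:**
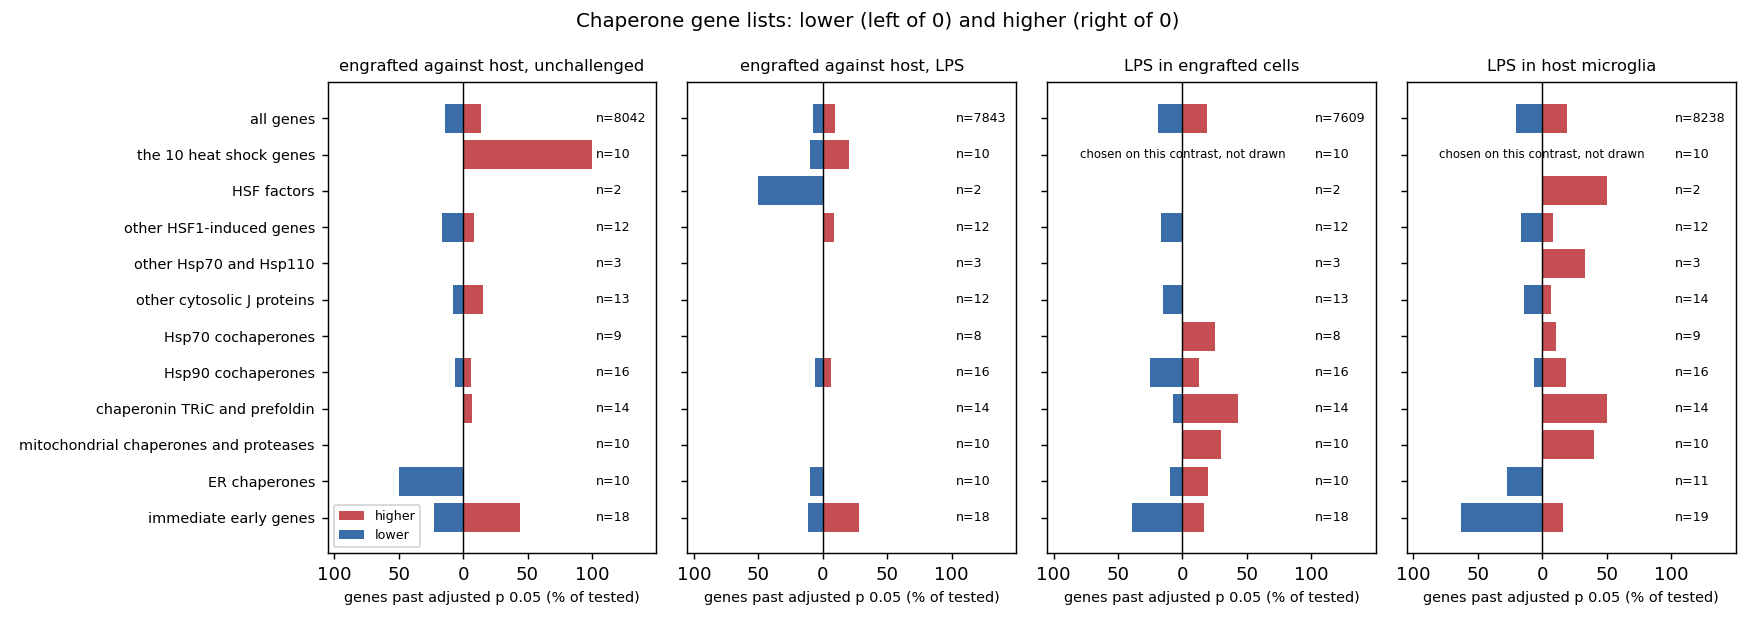
Horizontal axes, percentage of tested genes of a list past adjusted p 0.05, lower to the left of 0 and higher to the right, in 4 comparisons, with the number tested (n). The heat shock genes are not drawn in the LPS panels, and in the first panel 5 of 10 ER chaperones are lower.

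Other features of the libraries moved with these groups. Immediate early genes were higher for 8 and lower for 4 of 18 in unchallenged engrafted cells, where 13.6% and 13.7% of all genes were. Nr4a1 (1.34) and Klf6 (1.04) led the higher genes, and Egr2 (-1.69, edgeR adjusted p = 2.00e-06) and Btg2 (-0.69) the lower ones. With LPS they fell for 7 of 18 in engrafted cells and 12 of 19 in host microglia (19.3% and 20.5% of all genes did), among them Atf3 (-2.10 and -1.02), and 3 rose in each. Their summed level was 25780 to 28964 CPM in engrafted controls, 20697 to 26538 in host controls, 18204 to 36426 in engrafted LPS libraries and 17085 to 21979 in host LPS libraries. The highest was the engrafted LPS library of mouse 4, which also had the fewest reads and the highest Hspa1a, Hspa1b, Hspb1 and Hspe1 after LPS. Reads on genes were 64.0% to 66.3% of mapped tags in engrafted controls and 68.3% to 76.5% in engrafted LPS libraries, without overlap, and 65.1% to 70.9% in host controls and 66.9% to 69.9% in host LPS libraries, with overlap. The part of these features in the heat shock results was not tested.

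The sorted cells carried all 7 microglia markers in every library, at 14554 to 16385 CPM in sum in engrafted controls, 21377 to 23972 in host controls, 5240 to 6921 in engrafted LPS and 10920 to 12233 in host LPS libraries. The graft macrophage markers (5 genes, led by Apoe) were at 58415 to 82342 and 44525 to 94639 CPM in engrafted control and LPS libraries and at most 7483 CPM in host libraries. Monocyte markers (5 genes, all detected in each engrafted LPS library) were at 57.5 to 98.9 CPM in engrafted controls and at 902.2 to 1931 CPM in engrafted LPS libraries, and at most 19.2 CPM in host libraries. Neutrophil markers (6 genes) were at 35.2 to 370.4 and 1.20 to 168.8 CPM in engrafted control and LPS libraries. Of these genes, Ngp reached 126 and Camp 93 reads in a library, Elane and Cxcr2 at most 4, and Ly6g and Mpo at most 2. The 7 astrocyte markers summed to 152 to 316 CPM in host libraries and 13.4 to 55.6 CPM in engrafted libraries, Gfap having at most 1 read. Most of this sum was 1 gene, Slc1a3, with a mean of 100 CPM over all libraries. Aldoc had a mean of 8.63 CPM and the other markers at most 3.14 CPM. Red blood cell markers (4 genes) summed to 6362 CPM in the engrafted LPS library of mouse 4, the library on which the Hspa1a difference after LPS rested, and to 2.56 to 70.9 CPM in the other engrafted LPS libraries. They summed to 4613 CPM in the engrafted cells of control mouse 8, to 10.2 to 43.6 CPM in the other engrafted controls, and to at most 782.0 CPM in host libraries. Sums reached 185 CPM for 7 neuron, 221 for 6 oligodendrocyte, 41.7 for 6 endothelial, 76.5 for 5 B cell and 26.2 for 6 T and NK cell markers, and Cd79a and Pax5 of the B cell list had 0 reads. The part of other cell types in the heat shock values was not tested, and fewer cells of a type and less RNA per cell cannot be told apart in such bulk libraries.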

How the data were processed

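The mRNA of sorted brain macrophages, captured with oligo(dT) beads, had been made into 3′ libraries with a protocol derived from MARS-seq. The authors mapped reads to mm9 with HISAT (0.1.5 in the submitters' processing notes), kept unique hits, and counted reads over exons on the sense strand with HOMER. The deposited values are raw counts per gene. Libraries were grouped by their labels, and replicates are separate mice. The exon counts were tested with edgeR 4.0.16 (R 4.3.3), the quasi-likelihood test, on the libraries of the groups compared, after a filter on low counts (minimum 10 reads, 15 in total), TMM scaling and a prior count of 2, with Benjamini-Hochberg adjustment over all genes. A call meant adjusted p below 0.05 and, where stated, over 2-fold. limma 3.58.1 and DESeq2 1.42.0 served as alternatives, besides other scalings, filters and prior counts and the leaving out of each library. The code was tested on simulated data, with the same dispersion for all genes and no effect of the mouse. The interaction recovered fewer of the smaller changes than the other comparisons and there missed the first criterion, a fixed share recovered. That criterion was then replaced by nearness to the share that the simulated means and dispersion allow, with limits on slope and false calls. All comparisons met the second criterion. Marker and chaperone lists were described by counts and sums. All 10 heat shock genes were named in each comparison. Of the lists, each gene called was named, with up to 3 per direction past the adjusted threshold, and Hsf1 and Hspd1 always, except for a few list genes that are not reported here. The genes and lists were chosen with earlier results of these data known. Engrafted and host libraries with the same number came from the same mouse, as the labels give the mouse number. Correlations of their deviations from the group means were 0.15, 0.02, 0.21, 0.13, 0.02, -0.03, 0.05 and 0.08 for mice 1 to 8. The mouse was used as a block in an alternative, since the study's methods name none. Libraries of a group differed from each other beyond counting noise, so each counted as 1 sample. Between 395283 and 1203597 reads fell on genes per library, where 3 reads correspond to 2.34 to 8.73 CPM.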

Additional observations from a re-analysis of the deposited data

Results flagged for a closer look

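Single libraries stood apart from the other 3 of their group in a heat shock gene, by Dixon's criterion applied to 40 groups of 4 libraries (10 genes in 4 groups), where chance alone flags about 1 group in 20. Hspa8 was at 1655 CPM in the host microglia of mouse 2 after LPS, with the other host LPS libraries at 1169 to 1233 CPM. Hspb1 was at 40.7 CPM in the engrafted cells of mouse 4 after LPS, with the other engrafted LPS libraries at 6.40 to 12.1 CPM. That library had the fewest reads of all, and the part of depth was not tested. Hsp90ab1 was also picked out because all 4 engrafted LPS libraries lay below, and all 4 host LPS libraries above, every control library of their own population. The difference of the log2 changes (engrafted minus host) was -1.17 (SE 0.22) and was not tested, as the gene belongs to a set chosen on these comparisons.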

How the results depend on the processing

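Of 941 alternative values for single heat shock genes, 920 kept their side of the threshold or, where no test was made, stayed within the replicate spread, but 5 of these turned sign. They concerned the host LPS change of Hsp90aa1 (0.10 as reported, -0.20 without host mouse 1, -0.02 in limma-trend) and the difference between the LPS changes for Hspa1a (0.01 without engrafted mouse 3, 0.07 without host mouse 4) and Hspa1b (0.37 as reported, -0.15 with both genes summed). Counts of genes called moved by over 1.5 times under the filters on low counts. With at least 10 reads in every library, fewer genes were tested, and calls in unchallenged mice were 202 higher and 163 lower (main 455 and 348), in LPS-challenged mice 220 and 121 (504 and 308), with LPS in engrafted cells 362 and 393 (705 and 744), in host microglia 358 and 464 (559 and 765), and 234 for the interaction (421). This filter also left 5 heat shock genes over 2-fold lower with LPS in engrafted cells (main 8). Without a filter, calls were 827 higher in unchallenged engrafted cells, 815 higher in LPS-challenged engrafted cells and 1195 lower with LPS in engrafted cells. After LPS the number of heat shock genes higher in engrafted cells was 2, and 1 under DESeq2, limma-trend or with Hspa1a and Hspa1b summed into 1 gene, and it ran from 1 to 2 when each library was left out. That range was 8 to 10 in unchallenged mice, and 7 to 8 and 3 to 4 for those over 2-fold lower with LPS in engrafted and host cells. Near 0, the sign after LPS turned for Dnajb1 under library totals (-0.0070) and for Hspa8 without engrafted mouse 1 (0.03), engrafted mouse 2 (0.04) or host mouse 2 (0.11), with a range of -0.087 to 0.11 over the libraries left out. Hspb1 after LPS passed the threshold without engrafted mouse 4 (-0.96, edgeR adjusted p = 0.0227). Without that library the difference between the LPS changes was -1.19 for Hspa1a (main -0.31) and -0.50 for Hspa1b. Except for the fewer genes or samples, the cause was not tested. The mouse as replicate block changed no call of a heat shock gene (Hspa1a 1.91 in unchallenged and 1.31 in LPS-challenged mice) and no count by over 1.5 times. For the Hspa1b share after LPS the difference was 8.55 percentage points. Its exact permutation p after adjustment was 0.25 paired by mouse and 0.0571 unpaired. The paired test allows no p below 0.125 before adjustment, and no conclusion is drawn from either. The default prior count of the tool, chosen after seeing the data, gave 503 higher and 380 lower in unchallenged mice. Depth limits the genes with few reads. In engrafted LPS libraries Hsph1 had 2 to 17 reads, Hspb1 5 to 14 and Hsp90aa1 7 to 22. Hspa1b had 14 to 27 reads in host LPS libraries.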
